A study of Mus musculus with 3 samples.

Results

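Histone-modifying enzymes are the writers and erasers of the acetyl and methyl marks on histone tails. The 60 mouse genes described here were chosen by their names, not by their levels. They are the genes with a protein-coding transcript whose symbol starts with Kmt, Kdm, Setd, Hdac, Kat, Ezh or Sirt followed by a digit, without Kdm5c and Kdm5d. They are 60 of the 21901 genes with a protein-coding transcript, and of the 55536 annotated genes. By family they are 16 Kdm, 11 Hdac, 8 Kmt, 8 Setd, 8 Kat, 7 Sirt and 2 Ezh genes.

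RNA was measured in primary macrophages derived from bone marrow of the mouse strain C57BL/6J and stimulated for 15 min with 100 ng/ml lipid A, the part of bacterial lipopolysaccharide that activates the receptor TLR4. The RNA came from the chromatin fraction, which holds transcripts that are still being made or have not yet left the DNA, and it was depleted of ribosomal RNA and sequenced. There were 3 libraries of 1 group, numbered in the labels as biological replicates 1, 2 and 3, made from 1 µg, 250 ng and 500 ng of RNA, from the same donor label and with neither sex nor age collected. No unstimulated library was analysed here, so the values describe a state and not a response, and no test between groups was possible.

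Methyltransferases add methyl groups to histone lysines, and each enzyme prefers certain positions: Kmt2 and Setd1 proteins act on H3K4, Setd2 on H3K36, Ezh1 and Ezh2 on H3K27 and Kmt5 proteins on H4K20. Kdm proteins remove those groups, Kat proteins add acetyl groups, and Hdac and Sirt proteins remove them. In macrophages Kdm6b, an H3K27 demethylase, is a well known gene induced by lipopolysaccharide, and Hdac3 and its corepressors are known for restraining inflammatory genes.

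The gene tables held 10974934 to 21376404 expected counts per library, of which the members took 0.702%, 0.762% and 0.742% in replicates 1, 2 and 3. All 8 macrophage markers on a short list (Csf1r and Adgre1 among them) were at 1 TPM or more in every library, and their summed level ranged from 506.8 to 902.7 TPM. TPM is transcripts per 1000000, a level corrected for transcript length, in which 3 counts of a gene of 4 kb came to 0.0237 to 0.0552 TPM. None of 22 markers of T cells, B cells, neutrophils, erythroid or stromal cells reached 1 TPM in every library. Their summed level per cell type was at most 1.67 TPM, in the stromal list, and Cd3e, Cd79b, Ly6g, Elane and Hba-a1 were at 0 in all libraries of the gene table. The second quantification, an independent transcript table of the same libraries, gave the T cell list a median of 2.58 ± 0.834 TPM. Replicate 2 stood apart: genes with a protein-coding transcript took 166441 TPM in it, against 238718 and 252758 TPM in replicates 1 and 3. In bulk RNA of this kind, fewer cells with a transcript and less transcript per cell cannot be told apart.

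Nearly the whole set was present on chromatin. Of the 60 members, 57 had 1 TPM or more in every library, against 42.6% of all genes with a protein-coding transcript. At 0.5 TPM it was 59 members against 47.4%, at 5 TPM 51 members against 25.8%, and at 10 TPM 36 members against 16.5%. The median member stood at 19.1, 13.3 and 19.0 TPM in replicates 1, 2 and 3 (17.1 ± 3.32, SD, n = 3), against 0.60, 0.38 and 0.70 TPM for the median of all these genes (0.56 ± 0.16). The gap was narrower among expressed genes: among genes with a mean of 1 TPM or more, the 58 members had a median of 17.8 ± 3.48 TPM and the 10235 genes one of 8.74 ± 2.21 TPM. The members lie on 20 chromosomes, with at most 7 on one.

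**Figure D1:**
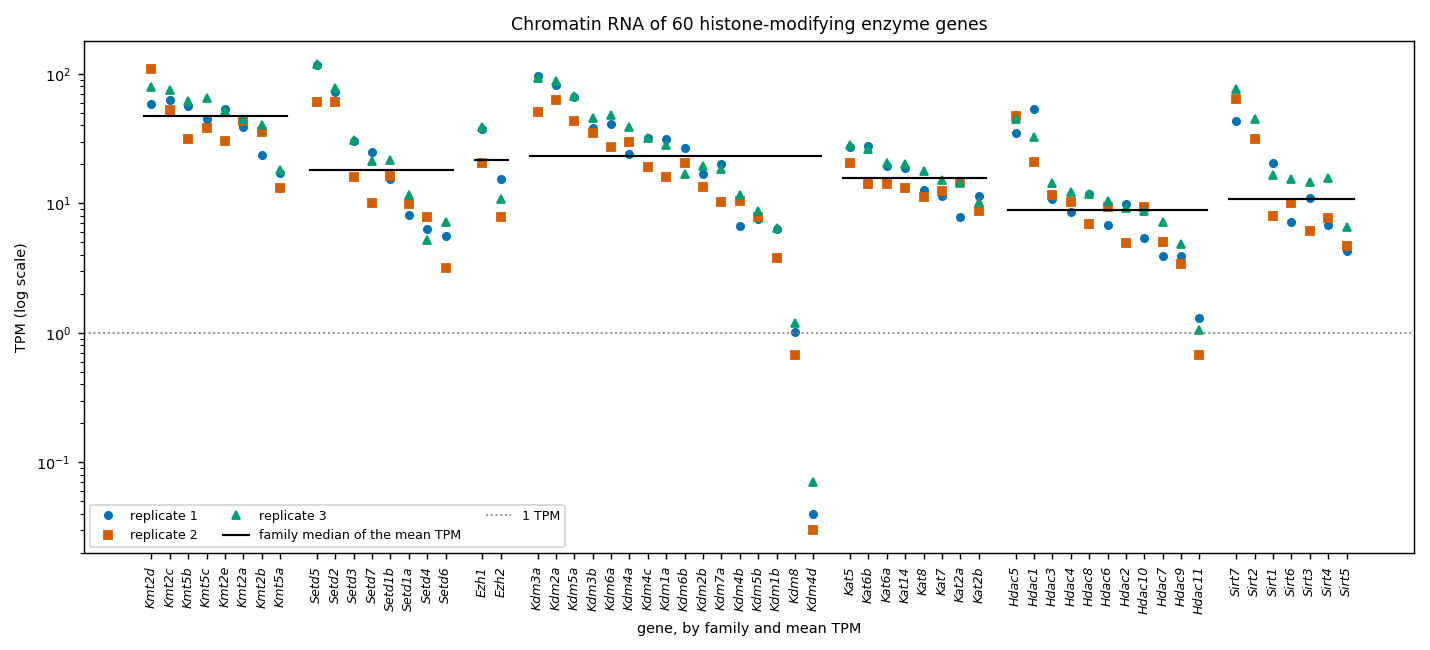
TPM on a log axis of each of the 60 members in the 3 libraries (1 point per library), ordered by family and mean level, with a black line at the family's median of mean TPM and a dotted line at 1 TPM. Kmt genes sit highest as a family, Hdac and Sirt genes lowest, and only Kdm8, Kdm4d and Hdac11 lie around or under 1 TPM.

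The families differed in level. The median Kmt gene had 49.1, 36.9 and 57.0 TPM in replicates 1, 2 and 3 (47.7 ± 10.1), above the median of each other family in each library. Kdm genes had a median of 22.3 ± 4.12 TPM, the 2 Ezh genes 21.8 ± 6.61, Setd genes 18.1 ± 4.53 and Kat genes 16.1 ± 2.65 TPM. These 4 medians lie within or near one another's spread over libraries. Sirt genes had a median of 11.6 ± 3.79 TPM and Hdac genes one of 9.50 ± 0.959 TPM, and which of these families was lowest changed between libraries.

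By medians pooled over symbol families, eraser families were lower than writer families, but for methylation this did not hold family by family. The pools follow gene symbols and not tested activity on histones. They include genes described below as acting on other targets or outside the nucleus, such as Setd3, Hdac6, Hdac10 and Sirt3. They leave out enzymes named otherwise, such as Ep300 and Jmjd1c. The Kmt median (47.7 ± 10.1 TPM) was above the Kdm median (22.3 ± 4.12 TPM) in each library. The Setd median was below the Kdm median in each library, and the Ezh median was above it in replicates 1 and 3 only. The median of log2(TPM + 1) of the 16 demethylase genes minus that of the 18 methyltransferase genes (Kmt, Setd and Ezh) was -0.40, -0.49 and -0.74 in replicates 1, 2 and 3 (-0.54 ± 0.18). The median of the 18 deacetylase genes (Hdac and Sirt) minus that of the 8 acetyltransferase genes was -0.69, -0.60 and -0.48 (-0.59 ± 0.10). Both differences had the same sign in every library and were larger than their SD. The size of each was less firm: without the members under a mean of 1 TPM the demethylase difference was -0.31, and in the second quantification the deacetylase difference was -0.999.

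Kdm6b, which removes H3K27 methylation, had 26.9, 20.6 and 16.8 TPM in replicates 1, 2 and 3 (21.4 ± 5.12), from 1215, 2221 and 1152 expected counts. Its gene lies at chr11:69398508-69413675 of mm10, on the minus strand. It stood in the middle of the set: 25 members had a higher mean, and 88.2% of all genes with a protein-coding transcript had a lower one. Kdm6a, the demethylase for the same mark encoded on the X chromosome, had 41.3, 27.1 and 48.5 TPM (39.0 ± 10.9). Kdm6b was thus below Kdm6a in each library, by -0.60, -0.38 and -1.48 on the log2(TPM + 1) scale (-0.82 ± 0.58). Replicate 3 decides the size of that gap, which was -0.49 without it.

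Only part of the Kdm6b level in TPM was on its coding transcript. The annotation gives the gene 2 transcripts, and the full-length coding one, Kdm6b-201 with 23 exons, took 47.1%, 49.2% and 65.8% of its abundance. The rest was on Kdm6b-202, a non-coding processed transcript of 3 exons inside the gene, whose level was 14.2, 10.5 and 5.74 TPM, while the coding transcript had 12.7, 10.1 and 11.0 TPM. The libraries therefore differed mostly in the TPM of the short transcript (10.2 ± 4.26), while the coding one had 11.3 ± 1.29 TPM. TPM is corrected for length, and Kdm6b-202 is far shorter than the coding transcript of 6654 bases. Its share of the counts is therefore smaller than its share of TPM, and was not computed. The antisense gene Kdm6bos shares 286 exon bases with Kdm6b on the opposite strand and had 13.2, 8.13 and 5.04 TPM, likewise highest in replicate 1 and lowest in replicate 3. Whether the counting used strand is not given in the sources used here. The expected counts of Kdm6b were whole numbers in each library, so they show no reads divided with another gene. Kdm6bos, at chr11:69401513-69402700, does not reach Kdm6b-202, at chr11:69403278-69404215. Any part of Kdm6bos in the counts of Kdm6b was not tested.

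Among H3K4 methyltransferases, all 8 were at 1 TPM or more in every library and their median was 35.9 ± 5.99 TPM. Kmt2d, which with Kmt2c places H3K4 monomethylation at enhancers, had 58.7, 108.7 and 79.3 TPM (82.3 ± 25.1). Kmt2c had 62.3, 52.9 and 74.6 TPM (63.3 ± 10.9). Replicate 2 was the highest library for Kmt2d and the lowest for Kmt2c, and the order of the genes changed between libraries of this table. In the second quantification Kmt2d was above Kmt2c in each library, by 0.60 ± 0.43 (log2). Kmt2d alone took 10.3%, 20.4% and 14.3% of all expected counts on members, its coding transcript being 19823 bases long.

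Kmt2a, the enzyme of the MLL1 complex at promoters and Hox genes, had 38.8, 43.3 and 45.1 TPM (42.4 ± 3.26). Its relative Kmt2b had 23.7, 35.8 and 40.5 TPM, below Kmt2a in each library. Kmt2e, a reader of H3K4 methylation whose SET domain is thought inactive, had 45.4 ± 12.9 TPM. Setd1a and Setd1b, enzymes behind much of H3K4 trimethylation at promoters, were lower, at 9.87 ± 1.75 and 17.8 ± 3.23 TPM. In this table Setd1a was below Setd1b in each library, but in the second quantification they differed by 0.05 ± 0.06 on the log2 scale. Setd1a shares 3523 exon bases with Gm49388 on the same strand, so its reads could have been divided between the 2 genes. Gm49388 was given 0, 178 and 0 expected counts in replicates 1, 2 and 3, beside 633, 1671 and 1039 for Setd1a. Setd7, which adds 1 methyl group to H3K4 and also acts on other proteins, had 24.9, 10.1 and 21.2 TPM.

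Setd5 had the highest mean of all 60 members in the gene table, with 117.2, 60.4 and 119.1 TPM (98.9 ± 33.4), so that it was first in replicates 1 and 3 but below Kmt2d and others in replicate 2. It encodes a SET domain protein found with corepressor complexes, and 98.5% of all genes with a protein-coding transcript had a lower mean. In the second quantification Kdm2a was above it in each library, with means of 132.1 and 117.7 TPM for Kdm2a and Setd5. Setd2, the enzyme of H3K36 trimethylation that travels with RNA polymerase II, had 72.6, 61.0 and 78.1 TPM (70.6 ± 8.71). The other SET domain genes were spread widely. Setd3, an actin histidine methyltransferase, had 25.8 ± 8.61 TPM, while Setd4 and Setd6 had 6.49 ± 1.36 and 5.32 ± 2.00 TPM. Setd6, which methylates the NF-kB subunit RelA in human cells, had the lowest mean of the Setd genes, although Setd4 was lower in replicate 3.

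The H4K20 enzymes had 16.1 ± 2.62 TPM for Kmt5a, which adds the first methyl group, 50.1 ± 16.3 for Kmt5b and 49.4 ± 14.4 for Kmt5c, which add the further ones. Kmt5b was above Kmt5c in replicate 1 and below it in the other 2 libraries of the gene table, and above it in each library of the second quantification by 0.33 ± 0.35 (log2). For H3K27, Ezh1 had 37.4, 20.6 and 38.8 TPM (32.3 ± 10.1), and Ezh2 had 15.5, 7.89 and 10.7 TPM (11.4 ± 3.85). Both are alternative catalytic subunits of the Polycomb complex PRC2, Ezh2 being the one known from dividing cells. Ezh1 was 2.84 times Ezh2 by their means, and above it in every library and in both quantifications.

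Promoter sequence was set beside the levels. RefSeq promoter windows (GRCm38.p6) were found for 48 of the 60 members, 68 windows in all, and the 250 bases before each start were read. The CpG dinucleotide, the mark of CpG island promoters, occurred a median of 17 times per window in members, against 6 times over all 32851 windows. At least 10 CpG stood in 79.4% of member windows and in 37.8% of all windows. All windows include those of genes that were not expressed. Windows of expressed genes alone were not compared, so a trait of expressed genes cannot be told from one of the members. The motif TATAAA, searched on both strands, was in 2 of the 68 member windows (2.94%), against 12.4% of all. CCGGAAG, the core of ETS family sites, was in 8 member windows (11.8%), against 6.91% of all. These are letter matches in a window and were not tied to any level. Shown are the windows of Kmt2d, the highest member whose window lies at an annotated coding start, and of Kdm4d, the lowest member, 5′ to 3′ on the gene's strand with each CG in capitals. The Kmt2d window, chr15:98871206-98871455 on the minus strand, holds 26 CG and the Kdm4d window, chr9:14500483-14500732 on the minus strand, holds 14. The window of Setd5, the member with the highest mean, holds 0 CG at 36.8% GC, but it lies inside the gene, at chr6:113104685-113104934 on the plus strand, and ends just over 100 bases from the nearest annotated coding start.
Kmt2d: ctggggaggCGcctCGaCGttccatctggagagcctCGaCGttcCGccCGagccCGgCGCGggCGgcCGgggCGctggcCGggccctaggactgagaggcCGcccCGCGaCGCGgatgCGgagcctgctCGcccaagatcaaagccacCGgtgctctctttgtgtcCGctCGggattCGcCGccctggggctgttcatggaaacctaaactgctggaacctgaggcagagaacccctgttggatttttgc
Kdm4d: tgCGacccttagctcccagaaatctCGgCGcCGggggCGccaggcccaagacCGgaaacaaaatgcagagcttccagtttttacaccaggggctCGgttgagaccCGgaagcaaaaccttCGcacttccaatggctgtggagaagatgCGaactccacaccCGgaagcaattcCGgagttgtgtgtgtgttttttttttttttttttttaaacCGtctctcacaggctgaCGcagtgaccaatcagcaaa
The Kdm4d window thus also holds more CG than the median window of the whole table.

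Demethylases included both some of the most abundant members and the only one at the floor. Kdm3a, an H3K9 demethylase, had 95.8, 50.6 and 92.2 TPM (79.5 ± 25.1), and its relative Kdm3b 38.3, 34.7 and 46.0 TPM (39.6 ± 5.77). Kdm2a, which binds unmethylated CpG and removes H3K36 dimethylation, had 82.6, 62.6 and 88.7 TPM (78.0 ± 13.7). Kdm2b, its relative in a variant Polycomb complex, had 16.6 ± 3.09 TPM, lower in each library by about the same amount: Kdm2a minus Kdm2b was 2.23, 2.15 and 2.13 on the log2(TPM + 1) scale.

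Kdm5a, an eraser of H3K4 trimethylation, had 65.8, 43.6 and 67.3 TPM (58.9 ± 13.3), against 7.57, 7.86 and 8.79 TPM for Kdm5b (8.07 ± 0.637). That 7.29-fold gap between their means was the widest among the 15 pairs of relatives compared. Kdm1a (LSD1), which removes H3K4 mono- and dimethylation within the CoREST complex, had 25.2 ± 8.10 TPM and Kdm1b 5.53 ± 1.53 TPM. Of the Kdm4 group, which erases H3K9 trimethylation, Kdm4a had 24.0, 29.5 and 39.1 TPM and Kdm4c 32.0, 19.1 and 31.8 TPM, in an order that changed between libraries. Kdm4b had 9.59 ± 2.61 TPM, but the interval given with its TPM in the gene table reached up to 104.1, 62.3 and 135 TPM in replicates 1, 2 and 3. Its level is thus poorly determined. Kdm4d, known from testis, had 1, 2 and 2 expected counts, under the floor of 3 counts in each library. Kdm7a, which acts on H3K9 and H3K27, had 16.3 ± 5.37 TPM. Kdm8, a JmjC protein, stood at the threshold with 1.01, 0.680 and 1.19 TPM, from 30 to 46 counts.

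All 8 acetyltransferases lay between 10.1 and 25.2 TPM in the mean of the gene table, and between 11.4 and 41.7 TPM in the second quantification. Kat5 (Tip60), the catalytic subunit of the NuA4 complex, had the highest mean of the family in the gene table, with 27.1, 20.3 and 28.2 TPM (25.2 ± 4.26), although Kat6b was higher in replicate 1 and Kat7 led in the second quantification with 41.7 TPM. Kat6a and Kat6b, which acetylate H3K23 and other H3 sites in MOZ/MORF complexes, had 18.1 ± 3.41 and 22.7 ± 7.39 TPM. Kat14, a subunit of the ATAC complex, had 17.4 ± 3.67 TPM, Kat8 (Mof), the H4K16 enzyme, 13.8 ± 3.47, and Kat7 (Hbo1), which acetylates H3K14 and H4, 13.0 ± 2.00 TPM. Kat2a (Gcn5) and Kat2b (Pcaf), alternative enzymes of SAGA, had 12.2 ± 3.80 and 10.1 ± 1.35 TPM. Kat2a was below Kat2b in replicate 1 and above it in replicates 2 and 3.

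By gene TPM, histone deacetylases were mostly low, with 2 exceptions. Hdac5, a class IIa protein that shuttles between nucleus and cytoplasm, had 34.8, 47.6 and 44.7 TPM (42.4 ± 6.72). Hdac1, a class I enzyme of the Sin3, NuRD and CoREST complexes, had 53.1, 20.97 and 32.8 TPM (35.6 ± 16.3). Its partner Hdac2 had 9.81, 4.91 and 9.14 TPM (7.95 ± 2.66), so that Hdac1 was 4.48 times Hdac2 by their means. Hdac3, the enzyme of the NCoR and SMRT corepressors, had 10.8, 11.7 and 14.3 TPM (12.3 ± 1.81).

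The remaining 7 Hdac genes had means of 1.01 to 10.4 TPM: Hdac4 10.4, Hdac8 10.2, Hdac6 (a tubulin deacetylase) 8.91, Hdac10 (a polyamine deacetylase) 7.84, Hdac7 5.39, Hdac9 4.05 and Hdac11, the single class IV gene, 1.01 TPM. Hdac11 had 1.30, 0.680 and 1.06 TPM, from 15 to 24 counts, and so missed the threshold in replicate 2. The class I median minus the class IIa median was 0.84, 0.29 and 0.42 on the log2 scale (0.52 ± 0.28), but -0.18 in the second quantification, so the data do not order these classes.

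Sirtuins are deacetylases and deacylases that use NAD. Sirt7, a nucleolar H3K18 deacetylase, was above the other Sirt genes in each library of the gene table, with 43.0, 63.5 and 77.1 TPM (61.2 ± 17.2). It shares 124 exon bases on the same strand with Mafg, which had 41.5 TPM. The posterior SD given with its counts was at most 0.071% of the count in any library, so the count was nearly fixed as assigned. That cannot show whether the shared bases were assigned to the right gene. Sirt2, mainly cytoplasmic, had 31.9, 31.5 and 45.2 TPM (36.2 ± 7.81). In the second quantification the order of these genes turned in replicates 1 and 3, with means of 56.8 TPM for Sirt7 and 63.5 TPM for Sirt2. Sirt1, which acts on histones and on NF-kB, had 20.5, 8.06 and 16.7 TPM (15.1 ± 6.38), and Sirt6, an H3K9 deacetylase, 10.9 ± 4.12 TPM. The mitochondrial Sirt3, Sirt4 and Sirt5 had 10.6 ± 4.21, 10.1 ± 4.82 and 5.17 ± 1.19 TPM.

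**Figure D2:**
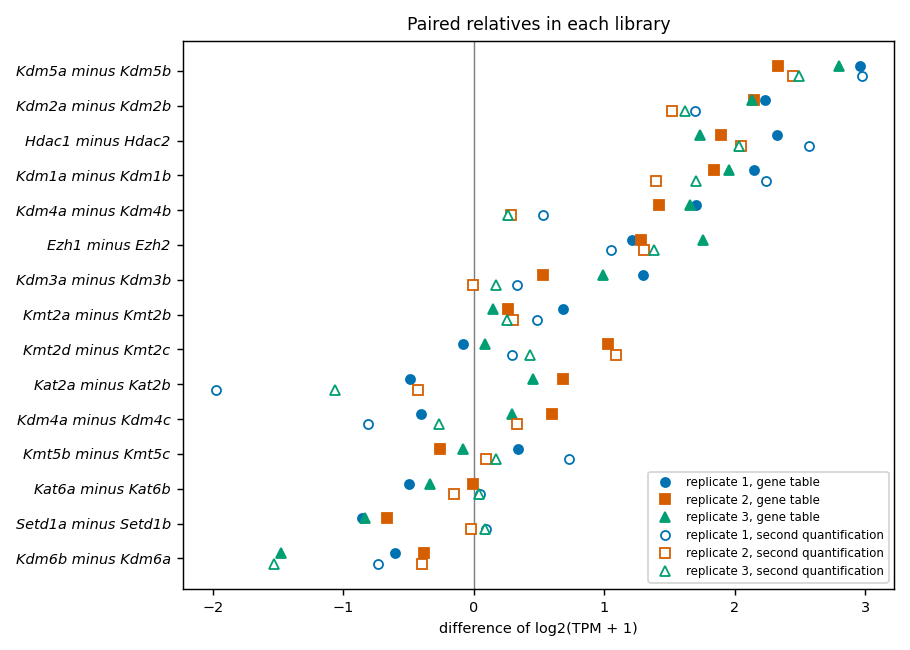
Difference of log2(TPM + 1) between 15 pairs of related members (first named minus second), 1 symbol per library, filled for the gene table and open for the second quantification. Points right of 0 mean that the first gene is higher. Kdm5a, Kdm2a, Hdac1, Kdm1a and Ezh1 lie above their relatives throughout, while Kat2a and Kat2b, Kdm4a and Kdm4c, and Kmt5b and Kmt5c cross 0.

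Of the 15 pairs, the order was the same in all libraries of both quantifications for Kdm6a over Kdm6b, Ezh1 over Ezh2, Hdac1 over Hdac2, Kdm5a over Kdm5b, Kdm4a over Kdm4b, Kdm2a over Kdm2b, Kdm1a over Kdm1b and Kmt2a over Kmt2b. The sizes were less stable for Kdm4a minus Kdm4b, which was 1.60 ± 0.15 in the gene table and 0.36 ± 0.15 in the second quantification. In every library of the gene table the interval of Kdm4b also reached above that of Kdm4a, so the order of this pair is less firm. Kdm3a was above Kdm3b in each library of the gene table by 0.94 ± 0.39, against 0.16 ± 0.17 in the second quantification. Kat2a minus Kat2b was 0.22 ± 0.62 and became -1.16 ± 0.78, below 0 in each library.

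Across members the second quantification gave higher values, by a median factor of 1.55, which was close to the 1.60 of all genes with a mean of 1 TPM or more. It gave 59 members at 1 TPM or more in every library, against 53.4% of all genes. The ranks of the members held between tables, with Spearman's rho of 0.92 to 0.95 within a library, and between libraries of the gene table with 0.91 to 0.96. Those values share the same reads or the same genes and are descriptions. The genes that moved most upwards were Sirt5 (4.67 times, to 24.1 TPM), Kdm4b (3.25 times), Kat7 (3.20 times), Kat2b (2.67 times) and Kdm2b (2.56 times). Those at the other end were Kat2a and Sirt7 (both 0.93 times), Hdac6 (1.04 times), Hdac3 (1.08 times) and Kmt2c (1.10 times). For the first 5 genes the level depends on the quantification by more than its spread over libraries. Other members did so too: Kdm3b went from 39.6 ± 5.77 to 97.5 ± 23.1 TPM, and Kmt2a from 42.4 ± 3.26 to 66.0 ± 6.12 TPM. It did not hold for every member, as Kmt2c went from 63.3 ± 10.9 to 69.6 ± 10.5 TPM.

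**Figure D3:**
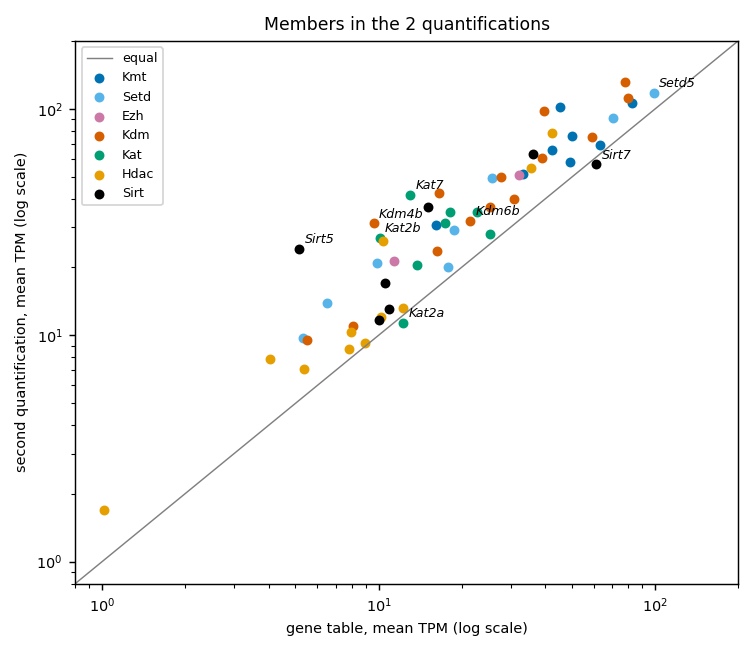
Mean TPM over 3 libraries of the 58 members with a mean of 1 TPM or more, gene table on the x axis and second quantification on the y axis, both on log scales, coloured by family, with a line of equal values. Nearly all points lie above the line, 56 of 58, and Sirt5 is farthest from it.

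Part of the members' RNA was assigned to transcripts that keep an intron. Retained-intron transcripts took 44.5%, 33.3% and 40.9% of the members' summed TPM in replicates 1, 2 and 3 (39.6 ± 5.70), against 39.4 ± 2.53% over all genes with a protein-coding transcript. In TPM, the members and all genes differed in this share by less than the spread between libraries. The share of expected counts on these transcripts was smaller, 17.7 ± 4.51% in members and 25.1 ± 3.71% in all genes. By counts the members were lower in each library, with 21.85%, 12.89% and 18.21% against 28.75%, 21.33% and 25.31%. The comparison with all genes thus depends on the measure. In chromatin RNA an unspliced precursor that covers an annotated intron and a stable retained-intron transcript cannot be told apart from these tables.

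Such a transcript is annotated in 46 of the 58 members with a mean of 1 TPM or more, against 63.6% of all genes at that level. Of these 46 members, 16 had over 50% of their TPM on it in every library, against 34.4% of the genes with such a transcript, so the share was near the background. Among members with a mean of 5 TPM or more, the highest shares were those of Hdac7 (80.5 ± 13.6%), Sirt4 (79.9 ± 6.02%), Sirt7 (79.3 ± 7.43%), Hdac1 (74.1 ± 4.999%) and Hdac5 (74.1 ± 1.41%). Hdac11, near 1 TPM, had 74.7 ± 5.71%. The abundance of Hdac1, Hdac5 and Sirt7 by gene therefore lay mostly on transcripts not annotated as coding. Transcripts annotated as coding held 25.9 ± 4.999% of Hdac1, 16.7 ± 5.34% of Hdac5 and 17.5 ± 8.02% of Sirt7.

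At the other end Kmt2d, Kmt2a and Kat6a have no annotated retained-intron transcript, and 94.1 ± 6.56%, 91.8 ± 6.76% and 98.2 ± 3.20% of their TPM was coding. Counting only coding transcripts of the first transcript table, Kmt2d led with 76.6 ± 19.5 TPM, followed by Kmt2c with 50.7 ± 6.51 and Kmt2a with 38.9 ± 3.26 TPM, and Setd5 stood at 20.0 ± 4.68 TPM. In 27 of 58 members the coding share was under 50% in every library, against 35.5% of all genes at that level. Kat2a was mostly on a non-coding processed transcript, Kat2a-204, with 64.3%, 57.1% and 51.3% of its TPM. Sirt1 had 42.6 ± 6.07% of its TPM on retained-intron transcripts, and 40.0%, 35.7% and 31.6% on a transcript annotated for nonsense-mediated decay.

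**Figure D4:**
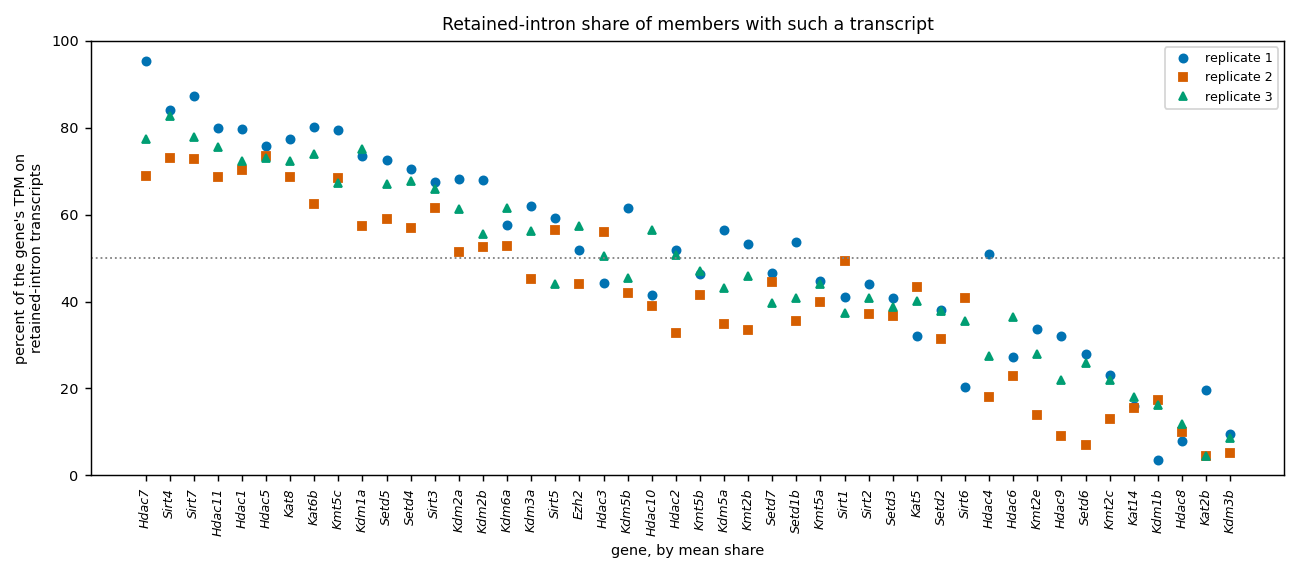
Percent of each gene's TPM on retained-intron transcripts, 1 point per library, for the 46 members that have such a transcript and a mean of 1 TPM or more, ordered by mean share, with a dotted line at 50%. Shares run from over 70% in Hdac7, Sirt4 and Sirt7 to under 10% in Kdm3b, and replicate 2 (squares) is often the lowest point.

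The retained-intron share was lowest in replicate 2 for 35 of the 46 members, against 52.8% of all genes with such a transcript, and highest there for 5, against 21.2%. Replicate 2 also differed in the members' levels. Its TPM was the lowest of the 3 libraries for 36 of 58 members, against 77.9% of all genes with a mean of 1 TPM or more. It was the highest for 5 members, against 3.84%. The lower total of protein-coding TPM in that library moves with these counts, and after each library was scaled to equal protein-coding TPM replicate 2 was lowest for 21 members, against 47.0%, and highest for 31, against 31.9%. On this scale the members thus stood higher in replicate 2, relative to other genes, than the background.

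The size of this shift was small for the set as a whole. The median deviation of a member from its own mean, minus that of all genes with a mean of 1 TPM or more, was -0.04, 0.10 and -0.02 in replicates 1, 2 and 3 on the log2(TPM + 1) scale. Single members moved far more. After scaling, the difference between replicate 2 and the mean of the other libraries was 1.22 for Kmt2d, 0.94 for Kat2a, 0.91 for Hdac10, 0.89 for Setd4 and 0.81 for Hdac5, and it was -0.59 for Sirt1 and for Setd7. The members with the largest SD over libraries in unscaled log2(TPM + 1) were Sirt1 (0.65), Setd7 (0.65), Hdac1 (0.65), Sirt4 (0.58) and Sirt3 (0.57).

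The direction of these differences went along with base composition. Over the 58 members, the difference between replicate 2 and the others was larger at higher GC content of the longest coding transcript, with Pearson's r of 0.62 and Spearman's rho of 0.58. Over all 10235 genes at that level r was 0.53 and rho 0.54. The members share their libraries, so these are descriptions over genes and not over samples. The 31 members highest in replicate 2 had a median GC content of 53.6%, and the 21 lowest there one of 47.6%. The length of that transcript went along with the difference far less (r of 0.11). Replicate 2 was also the library with the least starting RNA and the most counts, and the part of these in the result was not tested.

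**Figure D5:**
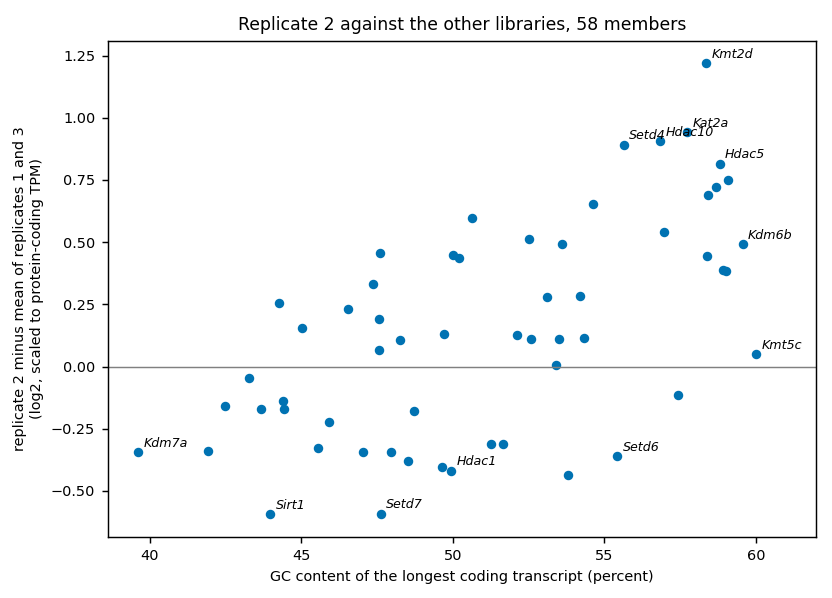
For the 58 members with a mean of 1 TPM or more, the log2 difference between replicate 2 and the mean of replicates 1 and 3 after scaling to protein-coding TPM (y axis) against the GC content of the longest coding transcript (x axis, percent). Points rise from the lower left, where Sirt1 lies at -0.59, to the upper right, where Kmt2d lies at 1.22.

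How different coding sequences are can be seen in 150 coding bases of the members at the ends of this range, Kmt2d and Sirt1. They are taken from the GENCODE M21 coding sequences where their GC content is close to that of the whole coding sequence, 59.45% and 49.12%. This is not the measure used above, as the longest coding transcripts of these genes are 58.4% and 44.0% GC. Capitals mark G and C. The stretch of Kmt2d-202, coding bases 19 to 168, is 59.3% GC, and that of Sirt1-203, coding bases 409 to 558, is 49.3%.
Kmt2d: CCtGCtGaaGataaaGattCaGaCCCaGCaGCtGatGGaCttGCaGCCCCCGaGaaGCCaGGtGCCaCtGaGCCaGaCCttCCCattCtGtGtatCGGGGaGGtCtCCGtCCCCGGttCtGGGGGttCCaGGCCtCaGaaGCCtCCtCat
Sirt1: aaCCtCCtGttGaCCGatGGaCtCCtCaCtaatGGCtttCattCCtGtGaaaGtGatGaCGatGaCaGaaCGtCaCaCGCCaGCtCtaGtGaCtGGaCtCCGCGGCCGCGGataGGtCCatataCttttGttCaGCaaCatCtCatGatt
Capitals are denser in the stretch of Kmt2d than in that of Sirt1. Kmt2d had the largest positive difference in replicate 2, and Sirt1, with Setd7, the most negative one. Because the genes were picked by that difference and the stretches by GC content, this contrast was fixed in advance. It only illustrates the relation above and adds no evidence for it. In each gene another transcript held the largest share of TPM, 51.6 ± 6.96% in Kmt2d and 35.8 ± 4.17% in Sirt1.

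Where genes overlap, levels can be less certain. An exon of another gene overlaps 22 members on the opposite strand and 5 on the same strand, and 20 members had expected counts more than 0.01 from a whole number in some library, as happens where reads are divided between genes. Among those named above, Kmt2e shares 972 exon bases with Srpk2 (42.2 TPM) on the opposite strand, and Sirt3 shares 418 with Ric8a (31.4 TPM). The posterior SD given with the counts was small for both, at most 0.17% of the count for Kmt2e and 0.86% for Sirt3. It describes the count as assigned, and cannot show that reads went to the right gene or that the TPM is certain. Kdm4b had a posterior SD of 0 in each library and still had the wide TPM interval given above.

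The partners of these enzymes were present as widely. Of 79 genes on 8 lists of complex subunits, readers and enzymes named otherwise, 75 had 1 TPM or more in every library. The share of all genes with a protein-coding transcript was 42.6%. The median of the 79 genes was 15.8 ± 3.00 TPM, against 8.74 ± 2.21 TPM for all such genes with a mean of 1 TPM or more. The PRC2 partners of Ezh1 and Ezh2 had 8 of 9 present and a median of 14.8 ± 4.78 TPM, with Eed, the reader of H3K27 trimethylation, at 50.8 ± 14.7 TPM. The 9 partners of the Kmt2 and Setd1 complexes were all present, with a median of 14.7 ± 2.15 TPM. The 11 deacetylase corepressors were all present at a median of 19.6 ± 3.86 TPM, led by Ncor1, the platform of Hdac3, with 178.1, 118.7 and 184.9 TPM. Ncor1 was thus far above Hdac3 itself in every library. Among 6 other demethylases, Jmjd1c, a relative of Kdm3a, had 157.3 ± 44.3 TPM, and 5 of 6 were present. All 20 other methyltransferases were present, with Nsd1, an H3K36 enzyme, at 109.1 ± 19.4 TPM. All 6 other acetyltransferases were present, with Ep300 at 70.8 ± 10.5 TPM, so that Ep300 lay above every Kat gene. The 14 acetyltransferase partners had 13 present, and the 4 BET readers of acetylated histones had 3, with Brd2 at 239.9, 120.6 and 151.8 TPM.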

How the data were processed

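Ribosomal-RNA-depleted chromatin RNA of 3 libraries in 1 group was used, grouped by the labels. Per the file headers, the deposited gene table and first transcript table give TPM and expected counts (not always whole numbers), and the transcript table adds the percent of a gene's abundance held by each isoform. A further deposited transcript table holds estimated counts and TPM of the second quantification, summed here by gene. Reads were placed on mm10 with GENCODE M21 genes, per the labels and deposited text. Aligner, counter, versions and strand setting: not given in the sources used here. The authors' TPM adds up to 1000000 per table, so features outside protein-coding genes move it.

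The members were matched by the symbol rule, and the lists by symbol (Setd9 had no match). Members, lists and the named-gene rule were chosen with earlier results of these data known. That rule takes Kdm6b, the 10 highest members, the extremes of each family, members under 1 TPM, the 5 with the largest SD, the 5 highest and lowest ratios between quantifications, the 5 highest retained-intron shares and pairs of relatives. Other members were named after their values were seen. Values are per library, with mean ± SD over 3 libraries that share a donor label, so the spread may be technical. Levels between genes are in TPM, and differences use log2(TPM + 1), which understates those of low genes. Detection was set at 1 TPM in every library. Floors of 3 counts cover counting error only. Depth was 10974934 to 21376404 expected counts.

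Alternatives were TMM factors (edgeR 4.0.16) and size factors (DESeq2 1.42.0) in R 4.3.3 on rounded expected counts, other thresholds, a pseudocount of 0.1, the second quantification, scaling to protein-coding TPM and leaving out each library. The steps ran in Python 3.11.15 (scipy 1.17.1, numpy 2.4.6, pandas 2.3.3, and matplotlib 3.10.9 for figures). Promoter windows came from RefSeq (GRCm38.p6), and coding sequence and GC content from GENCODE M21. The comparison of replicate 2 with the mean of the other libraries was chosen after seeing the data.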

Additional observations from a re-analysis of the deposited data

Results flagged for a closer look

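The antisense gene Kdm6bos, which the symbol rule does not take, had 114, 154 and 47 expected counts in replicates 1, 2 and 3, above the 3 counts taken as the floor. It lies opposite Kdm6b and shares 286 exon bases with it. In the second quantification it had 30.7, 18.7 and 14.1 TPM. Its part in the counts of Kdm6b was not tested.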

How the results depend on the processing

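No paired analysis was possible because there was only 1 group. Over 19 results and 160 alternatives, 145 values stayed within the spread between libraries or within 1.5 times a count, 14 moved further and 1 changed sign. The second quantification raised the members' median to 31.2 TPM, Kdm6b to 32.0 TPM and the gap between the highest and lowest family medians to 2.66, against 2.27 (log2). It moved deacetylases minus acetyltransferases to -0.999 and turned class I minus class IIa Hdac genes to -0.18. With members of mean TPM 1 or more only, demethylases minus methyltransferases was -0.31. The retained-intron share of expected counts was 17.7%. In each case the cause was not tested. Leaving out each library in turn moved none of these 19 results beyond that spread. A mean of 3 libraries cannot move by its SD when a library is left out, so for such results this outcome was fixed in advance. Those values are among the 145 and say nothing on stability. Kdm6b minus Kdm6a ranged from -1.04 to -0.49. The other moved values were single family medians, raised in the second quantification or, for Hdac genes, lowered with a pseudocount of 0.1. Members under 3 counts, here Kdm4d, cannot be told from 0 at this depth.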
